A study of Mus musculus with 8 samples.

Results

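The proteasome is the barrel-shaped protease that degrades proteins tagged with ubiquitin. Its core particle (20S) stacks outer rings of alpha subunits on inner rings of beta subunits, and 3 of the beta subunits, encoded by Psmb5, Psmb6 and Psmb7, carry the active sites. The regulatory particle (19S) binds ubiquitin chains, removes them and unfolds the substrate with a ring of ATPases (the Psmc genes), while its other subunits (many of the Psmd genes) form the lid and the ubiquitin receptors. Dedicated chaperones (Psmg1 to Psmg4 for the core; Psmd5, Psmd9 and Psmd10 for the regulatory particle) hold the pieces during assembly and are not part of the finished particle. Alternative activators (Psme1 to Psme4) and an inhibitor (Psmf1) bind the same ends of the core. When proteasome activity is short, the transcription factor NRF1 (gene Nfe2l1) is known to raise most subunit genes together.

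The genes described here are those of the deposited table whose symbol starts with Psma to Psmg followed by a digit, leaving out the interferon-inducible catalytic subunits Psmb8, Psmb9 and Psmb10. The rule used names only and found 48 of the 19301 genes listed: 8 alpha and 8 beta genes of the core, 6 ATPases, 11 non-ATPase subunits, 6 genes of activators and the inhibitor, 7 assembly chaperones and 2 genes that carry such a name without being subunits (Psmc3ip, a recombination cofactor, and Psme3ip1, a partner of the Psme3 product). The RNA came from primary tendon stem cells (TSCs) of C57BL/6J mice, isolated from the patellar tendon and cultured for 4 days either in low glucose medium (LG, 5.5 mM glucose with the vehicle DMSO) or in high fat, high glucose medium (HFHG, with raised glucose and added palmitic acid, a saturated fatty acid). Each group had 4 biological replicates, and glucose and palmitic acid were changed together, so that their effects cannot be told apart. The values are FPKM, in which the fragments of a gene are scaled to its length and to the depth of the library, which allows levels to be compared between genes.

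The reads behind the FPKM, recovered from the values, were 34308108 to 37362725 per library. The sum of FPKM was 402404 to 409466 in HFHG and 416926 to 433432 in LG, without overlap. All 10 tendon marker genes checked were tested, with log2 fold changes from -0.40 for Egr1 to 1.36 for Col1a1. Their summed levels were 2497 to 2550 FPKM in HFHG and 1621 to 1656 FPKM in LG. Most of this sum was Col1a1, Col1a2, Dcn, Thbs4 and Tnc, whereas Scx and Tnmd averaged 1.86 and 0.855 FPKM over the 8 libraries. The endothelial and adipocyte markers were close to 0. Muscle markers summed to 0.736 to 1.66 FPKM in HFHG and 3.17 to 4.06 FPKM in LG, with Myod1 and Pax7 near 0 and Acta1 lower in HFHG (-1.82 on the log2 scale). Macrophage markers were present: 9 of 10 were tested and 8 of them were lower in HFHG, against 30.8% of all tested genes. These markers summed to 1724 to 1773 FPKM in HFHG and 1893 to 1977 FPKM in LG, most of it Lyz2, with Cd163 near 0. Their log2 fold changes ran from -0.97 (C1qa) to -0.11 (Lyz2). The part of these cells in the differences below was not tested, and in bulk RNA fewer cells of a type and less RNA per cell cannot be told apart. LG replicate 4 stood apart from the other LG libraries on the second principal component, and the counts for the proteasome genes and their structural groups are given without it where they differ.

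The 14 constitutive core subunits averaged 103 ± 2.11 FPKM in HFHG and 102.5 ± 3.38 FPKM in LG (mean ± SD over 4 libraries), and the 6 ATPases averaged 77.1 ± 1.58 and 76.6 ± 2.23 FPKM. Summed over all 48 genes, the proteasome took 0.775% ± 0.00609 of all FPKM in HFHG and 0.772% ± 0.0102 in LG. This share divides by the sum of FPKM, which was lower in HFHG. The summed level itself was 3144 ± 46.9 FPKM in HFHG and 3265 ± 96 FPKM in LG. The share of reads was 0.467% ± 0.00551 in HFHG and 0.481% ± 0.0113 in LG. Libraries of the groups overlapped in each of these measures. The core and ATPase averages of the groups overlapped, whereas the 11 non-ATPase subunits averaged 85.2 ± 0.54 and 94.3 ± 2.55 FPKM without overlap. Of the 31 tested core and regulatory particle subunits among the 48 genes, 13 were called with the deposited scaling (41.9%, against 64.8% of all tested genes). More were called under each of the 3 other scalings and without LG replicate 4. After rescaling to the same sum or quantile normalization most of them were called, as the counts by structural group below show. Psmd8, a lid subunit, had the highest level of the 48 genes, with a mean of 309.8 FPKM over the 8 libraries, and the activators, the inhibitor and the assembly chaperones had means of 10.3 to 54.7 FPKM.

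**Figure D1:**
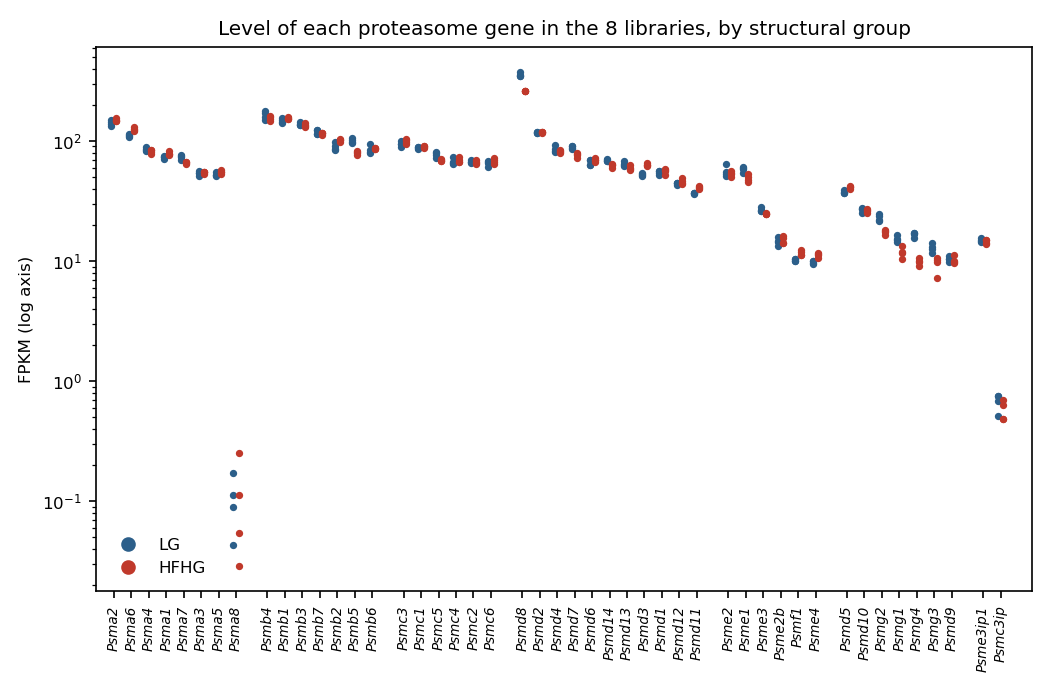
FPKM of each proteasome gene (log axis) in the 4 LG (blue) and 4 HFHG (red) libraries, 1 point per library, ordered by mean level within each structural group. Psmd8 stands highest at 309.8 FPKM on average, Psma8 lies below 0.3 FPKM, and Psmb11, at or near 0 in all libraries, is not drawn.

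Psma8 and Psmb11, both known from other tissues, were below the minimum for testing of 0.5 FPKM in at least 4 libraries. Psma8, which encodes the testis-specific alpha subunit, had 4, 2, 8 and 18 reads in HFHG replicates 1 to 4 and 6, 8, 3 and 12 reads in LG replicates 1 to 4. The groups overlapped (exact two-sided permutation test on FPKM, p = 0.857, 4 against 4 libraries). Psmb11, the beta subunit of the thymus, had 1 read in HFHG replicate 3 and 0 reads in the other 7 libraries, where 0 reads allow up to 3 by counting error alone.

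Of the 46 genes tested, 9 (19.6%) were higher and 13 (28.3%) lower in HFHG at an adjusted p below 0.05 (limma on log2 FPKM, Benjamini-Hochberg over 11710 genes), and 24 did not pass. Over all tested genes, 34% were higher, 30.8% lower and 64.8% called in either direction, against 47.8% of the proteasome genes. None of the 46 passed the threshold used in the study, a fold change over 2 with an unadjusted p below 0.05, which 5.33% of all tested genes passed. The count was also 0 with voom on the recovered reads, and 23 of the 46 had an unadjusted p below 0.05 (limma). The values of the groups did not overlap for 20 of the 46 genes (43.5%), against 59.2% of all tested genes. The split and the number of calls depended on how the libraries were scaled. There were 20 higher and 11 lower after rescaling to the same sum, against 4682 and 3002 of all 11710 tested genes. The counts were 16 and 13 after quantile normalization (all genes 3606 and 4024), and 7 and 17 with median-ratio scaling (3548 and 4053). Without LG replicate 4 they were 12 and 12 (3920 and 3599). After rescaling to the same sum or quantile normalization, the share called was close to that of all tested genes. Rescaling to the same sum moved the median log2 fold change of all tested genes from 0.02 to 0.07.

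The differences were small. The median absolute log2 fold change was 0.08 for the 46 proteasome genes and 0.25 for all tested genes, and 24 of the 46 (52.2%) lay within 0.1 of no change, against 22.7% of all tested genes. Among the 2246 tested genes with a mean at or above the lower quartile of the proteasome genes (29.6 FPKM), 80.6% were called and 22.6% lay within 0.1. Of these 2246 genes, 31% were higher and 49.6% lower in HFHG. The replicates of the proteasome genes had a median coefficient of variation of 3.21% in HFHG and 3.94% in LG, against 4.93% and 5.91% for all tested genes. These sets were not matched for level, and most tested genes lay below 29.6 FPKM.

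**Figure D2:**
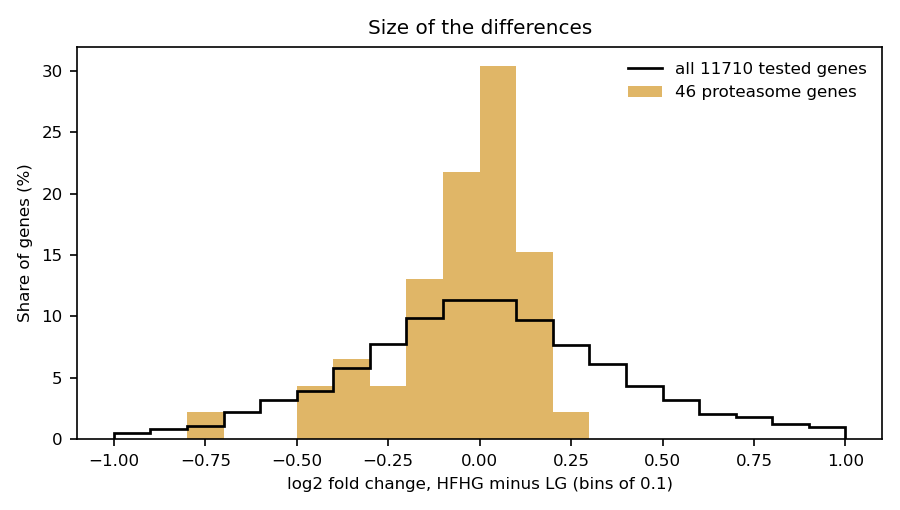
Share of genes (%) in bins of 0.1 of the log2 fold change, HFHG minus LG, for the 46 tested proteasome genes (bars) and all 11710 tested genes (line). The proteasome genes gather within 0.1 of 0, with a tail towards lower values; 5.34% of all genes lie outside the plotted range.

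**Figure D3:**
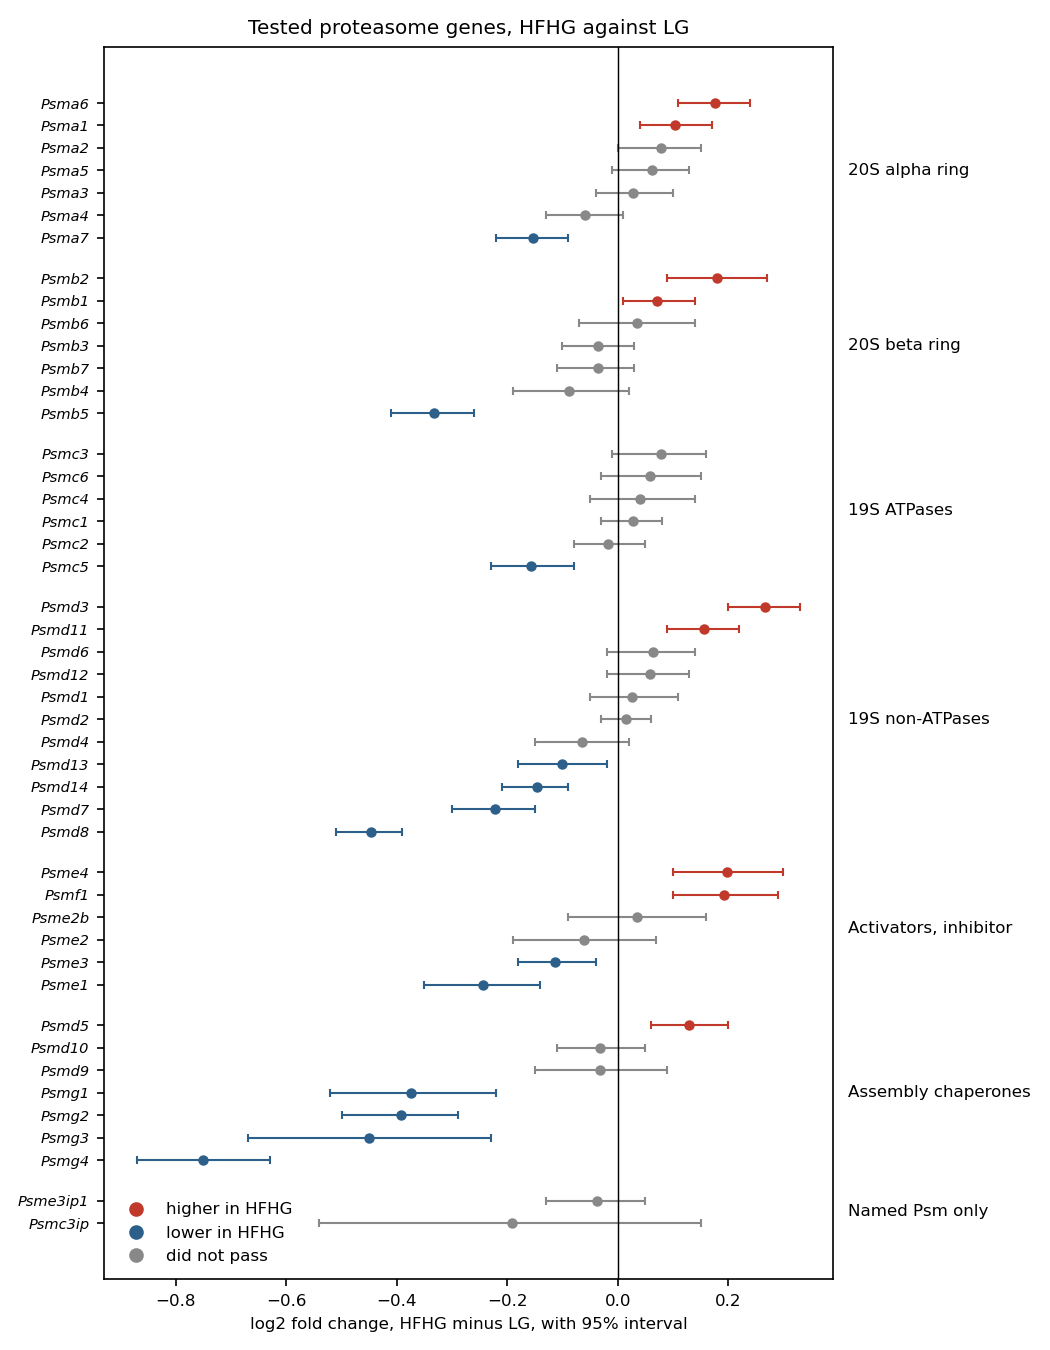
Log2 fold change of each tested gene, HFHG minus LG, with its 95% interval from limma, grouped by structure and coloured by whether the gene was higher, lower or did not pass. Most subunits sit within 0.2 of 0, while Psmg1 to Psmg4, Psmd8 and Psmb5 lie to the left, between -0.33 and -0.75.

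The promoters of genes at the ends of this range are shown first, to set their sequence beside the values that follow. They are RefSeq entries of the 300 bases from 250 before to 50 after the annotated start, and 40 of the 48 genes matched an entry. Psmd3, the most increased gene, and Psmg2 were among the 8 without an entry and are not shown. Psmg1, Psmg3 and Psmg4 encode chaperones of 1 pathway and were all lower, Psmd8 and Psmb5 were the subunits with the largest decrease, and Psme4 was the most increased activator. Capitals mark 3 motifs searched on both strands: CCGGAAG (bound by ETS factors), TGACNNNGC (the core of the antioxidant response element, read by NRF1 and NRF2) and CCAAT (bound by NF-Y). A match on the opposite strand appears as its reverse complement, and no motif overlaps another in the sequences printed.
Psmg1 promoter, GRCm38 chr16:95990911-95991210, minus strand: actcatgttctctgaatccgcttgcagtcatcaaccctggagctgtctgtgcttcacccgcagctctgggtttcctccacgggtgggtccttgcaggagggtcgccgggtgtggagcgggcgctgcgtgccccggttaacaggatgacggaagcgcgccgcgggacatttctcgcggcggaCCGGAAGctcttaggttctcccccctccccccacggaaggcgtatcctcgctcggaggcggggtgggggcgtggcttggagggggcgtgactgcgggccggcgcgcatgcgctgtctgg
Psmg3 promoter, GRCm38 chr5:139826845-139827144, minus strand: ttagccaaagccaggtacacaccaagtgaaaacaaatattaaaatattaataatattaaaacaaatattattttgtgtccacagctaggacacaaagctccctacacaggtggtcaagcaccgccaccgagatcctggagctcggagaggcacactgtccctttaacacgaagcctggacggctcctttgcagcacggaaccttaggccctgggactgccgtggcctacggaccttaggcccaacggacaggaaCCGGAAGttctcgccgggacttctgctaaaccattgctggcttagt
Psmg4 promoter, GRCm38 chr13:34162714-34163013, plus strand: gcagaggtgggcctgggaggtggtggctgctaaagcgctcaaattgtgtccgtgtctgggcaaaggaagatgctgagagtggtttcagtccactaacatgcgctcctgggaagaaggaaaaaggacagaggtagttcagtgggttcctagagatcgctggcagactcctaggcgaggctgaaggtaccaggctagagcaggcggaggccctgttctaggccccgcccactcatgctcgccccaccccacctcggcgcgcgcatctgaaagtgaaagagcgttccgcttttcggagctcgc
Psmd8 promoter, GRCm38 chr7:29180624-29180923, minus strand: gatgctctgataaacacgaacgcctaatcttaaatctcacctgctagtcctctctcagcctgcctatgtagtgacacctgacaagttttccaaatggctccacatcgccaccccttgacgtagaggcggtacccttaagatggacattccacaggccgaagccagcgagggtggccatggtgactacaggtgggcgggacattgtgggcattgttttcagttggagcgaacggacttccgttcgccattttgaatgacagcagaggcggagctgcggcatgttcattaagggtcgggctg
Psmb5 promoter, GRCm38 chr14:54617946-54618245, minus strand: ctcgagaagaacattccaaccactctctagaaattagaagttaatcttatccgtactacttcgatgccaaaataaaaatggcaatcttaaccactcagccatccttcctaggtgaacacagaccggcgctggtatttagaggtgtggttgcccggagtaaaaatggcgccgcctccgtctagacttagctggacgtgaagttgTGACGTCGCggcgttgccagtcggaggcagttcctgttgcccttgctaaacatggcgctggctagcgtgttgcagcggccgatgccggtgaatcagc
Psme4 promoter, GRCm38 chr11:30771525-30771824, plus strand: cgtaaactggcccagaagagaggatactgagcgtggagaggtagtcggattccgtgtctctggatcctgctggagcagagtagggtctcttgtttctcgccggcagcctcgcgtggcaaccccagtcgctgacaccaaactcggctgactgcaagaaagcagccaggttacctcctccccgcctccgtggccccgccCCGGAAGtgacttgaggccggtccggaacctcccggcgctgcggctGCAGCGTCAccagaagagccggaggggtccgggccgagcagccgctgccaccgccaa

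Psmg1 and Psmg3 each hold 1 CCGGAAG, and Psme4 holds 1 CCGGAAG and, on the opposite strand, 1 TGACNNNGC. Psmb5 holds 1 TGACNNNGC, and Psmg4 and Psmd8 hold none of the 3. CCGGAAG was found in 16 of the 40 proteasome promoters (40%), against 9.93% of the promoters of 27025 genes and 20.5% of those of 9378 tested genes. It was found in 3 of 6 higher, 4 of 11 lower and 9 of 22 not passing genes with an entry. TGACNNNGC was found in 6 of 40 (15%, against 14% of all genes and 17% of tested genes), and CCAAT in 15 of 40 (37.5%, against 41.1% and 42.9%). These are matches of letters in a short window, given as a description.

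All 4 assembly chaperones of the core were lower in HFHG, also under each of the 3 other scalings and without LG replicate 4, and their groups did not overlap. Over all tested genes, 30.8% were lower and 59.2% did not overlap. Their products pair as Psmg1 with Psmg2 and Psmg3 with Psmg4 and build the alpha ring. Their summed level was 50.1, 49.3, 50.2 and 44.8 FPKM in HFHG and 65.9, 67.5, 67.1 and 70.6 FPKM in LG. The sum was 0.473 ± 0.0175 times the mean core subunit in HFHG and 0.662 ± 0.0139 times in LG.

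Psmg4 had 10.1, 9.03, 10.5 and 9.78 FPKM in HFHG and 15.4, 17.1, 16.9 and 17.1 FPKM in LG. Every HFHG library was below every LG library, and this was the largest change of the 46 genes, at -0.75 ± 0.0534 (log2 fold change ± SE; adjusted p = 7.6e-08, limma). Psmg3 had 10.2, 10.5, 9.86 and 7.29 FPKM in HFHG and 12.5, 11.6, 13.1 and 14.3 FPKM in LG. It fell by 0.45 on the log2 scale (SE 0.102, adjusted p = 0.00184, limma), with HFHG replicate 4 the lowest library. Psmg2, the partner of Psmg1, had 18, 16.5, 18.2 and 17.4 FPKM in HFHG and 21.5, 24.6, 22.2 and 23.9 FPKM in LG. The groups did not overlap, and the log2 fold change was -0.39 ± 0.0485 (adjusted p = 1.39e-05, limma). Psmg1 had 11.9, 13.3, 11.6 and 10.3 FPKM in HFHG and 16.4, 14.3, 14.9 and 15.4 FPKM in LG. Its groups lay closest, with HFHG replicate 2 just below LG replicate 2, and the log2 fold change was -0.37 ± 0.0687 (adjusted p = 0.000398, limma). For each of these 4 genes an exact permutation test over the 70 arrangements of the libraries gave its smallest possible p, 0.0286. Any gene whose groups do not overlap gets this p, so the test adds nothing to the separation.

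**Figure D4:**
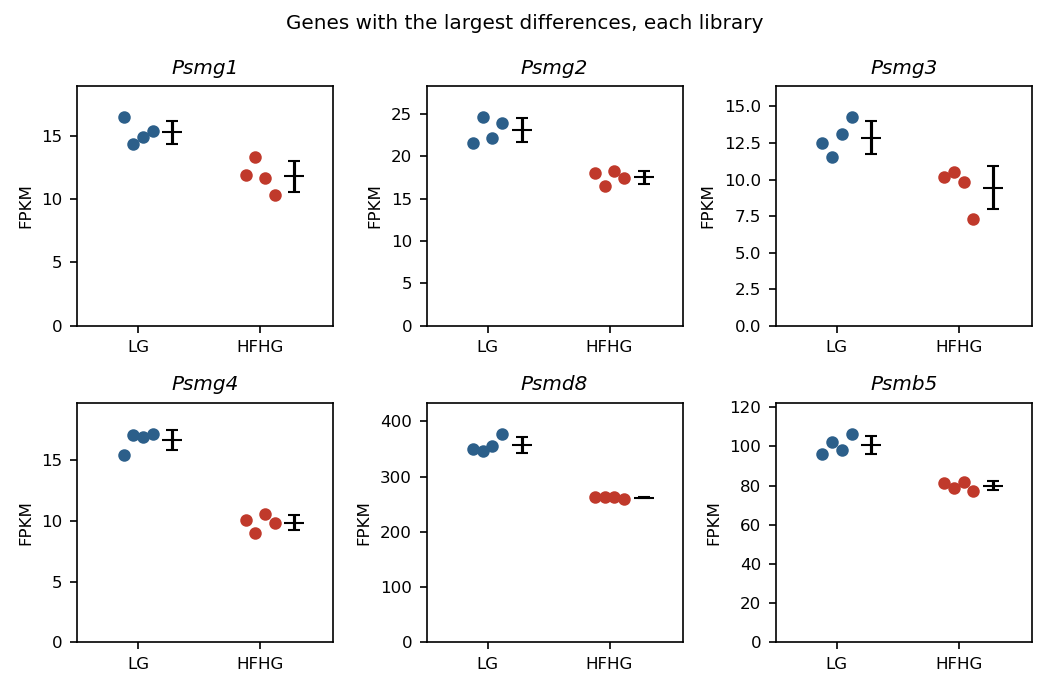
FPKM in each library (points; LG blue, HFHG red) with the mean and SD of 4 libraries (black) for the 6 genes with the largest log2 fold change in size; axes start at 0. In all 6 panels each HFHG library lies below each LG library.

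Of the 3 chaperones of the regulatory particle, 1 rose and 2 did not pass, beside 34% higher and 30.8% lower over all tested genes. Psmd5, which holds the ATPase Psmc2, had 41.6, 42.5, 41 and 39.9 FPKM in HFHG and 37.9, 36.9, 39.1 and 37 FPKM in LG. All HFHG libraries were above all LG libraries, and the log2 fold change was 0.13 ± 0.0315 (adjusted p = 0.00297, limma). Psmd9 (-0.03, adjusted p = 0.636, limma) and Psmd10 (gankyrin; -0.03, adjusted p = 0.478, limma) did not pass. Pomp, a maturation factor of the core that is not among the 48 genes by its name, was lower, at 132 against 140.1 FPKM on average (-0.09 on the log2 scale, adjusted p = 0.00862, limma).

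**Figure D5:**
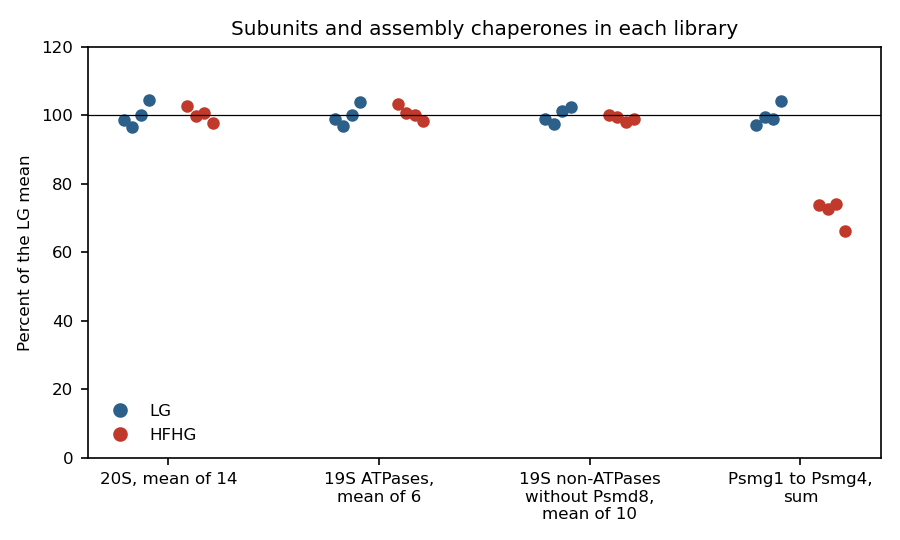
Level in each library as a percent of the LG mean (LG blue, HFHG red) for the mean of the 14 constitutive core subunits, the 6 ATPases, the 10 non-ATPase subunits without Psmd8, and the sum of Psmg1 to Psmg4. The 3 subunit means overlap between groups and the chaperone sum does not.

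In the alpha ring, 2 of 7 tested genes rose, 1 fell and 4 did not pass (against 34% higher and 30.8% lower over all tested genes), and the median log2 fold change was 0.06. The calls were 5 higher and 1 lower after rescaling to the same sum, 1 and 2 with median-ratio scaling, and 3 and 1 after quantile normalization or without LG replicate 4. Psma6 had 127, 124, 130.3 and 121 FPKM in HFHG and 110.5, 107, 112 and 115 FPKM in LG. It rose by 0.18 on the log2 scale (SE 0.0299, adjusted p = 0.000217, limma) without overlap. Psma7 had 67.2, 66.5, 66 and 64.4 FPKM in HFHG and 75.9, 69.4, 74.6 and 74 FPKM in LG. Each HFHG library was lower, and the log2 fold change, -0.15 ± 0.0312 (adjusted p = 0.000828, limma), was -0.095 after rescaling to the same sum. Psma1 also rose (0.10, adjusted p = 0.00762, limma), which it did not with median-ratio scaling (adjusted p = 0.0628). The 4 others, Psma2, Psma3, Psma4 and Psma5, had log2 fold changes from -0.06 to 0.08.

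In the beta ring, 2 of 7 tested genes rose, 1 fell and 4 did not pass, beside the same 34% and 30.8%. The calls were 1 higher and 3 lower with median-ratio scaling, and 3 and 1 after rescaling to the same sum, after quantile normalization or without LG replicate 4. The median log2 fold change was -0.04, and it was positive after rescaling to the same sum (0.02) or quantile normalization (0.04). Psmb5 encodes the subunit with chymotrypsin-like activity, the target of proteasome inhibitors such as bortezomib. It had 81.6, 78.9, 81.8 and 77 FPKM in HFHG and 95.9, 102, 97.9 and 106 FPKM in LG. The groups were apart, and the log2 fold change was -0.33 ± 0.0348 (adjusted p = 2.92e-06, limma). The other catalytic genes, Psmb6 (0.03, adjusted p = 0.532, limma) and Psmb7 (-0.04, adjusted p = 0.34, limma), did not pass. Psmb2, a structural subunit, had 104, 98.7, 102 and 102 FPKM in HFHG and 84.1, 85.9, 91.7 and 97.7 FPKM in LG. It rose by 0.18 on the log2 scale (SE 0.0418, adjusted p = 0.00222, limma), with LG replicate 4 within 1 FPKM of the lowest HFHG library. Psmb1 passed narrowly (0.07, adjusted p = 0.0455, limma) and lost the call in 10 of 18 alternatives.

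In the ATPase ring, 1 of 6 genes fell and 5 did not pass, with log2 fold changes of -0.02 to 0.08, beside 34% higher and 30.8% lower over all tested genes. This depended on the scaling: 4 were higher and 1 lower after rescaling to the same sum, 2 and 1 after quantile normalization, and 1 and 1 without LG replicate 4. Psmc5, the gene that fell, had 67.6, 71.3, 69 and 68.1 FPKM in HFHG and 79, 72.3, 76.6 and 80.3 FPKM in LG. The groups did not overlap, and the log2 fold change was -0.16 ± 0.0344 (adjusted p = 0.00142, limma), or -0.098 after rescaling to the same sum. Psmc3, with the highest log2 fold change of the ring, had 104, 102, 98.4 and 94.2 FPKM in HFHG and 94.1, 89.3, 94.6 and 99.8 FPKM in LG. Its groups overlapped (0.08, adjusted p = 0.0911, limma).

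Among the 11 non-ATPase subunits, 2 rose (18.2%), 4 fell (36.4%) and 5 did not pass, against 34% higher and 30.8% lower over all tested genes. The calls were 5 higher and 3 lower after rescaling to the same sum, 5 and 4 after quantile normalization, 2 and 5 with median-ratio scaling, and 2 and 3 without LG replicate 4. Psmd8, the last subunit to join the lid, had 262.5, 263, 263 and 260.0 FPKM in HFHG and 349.7, 347, 356 and 378 FPKM in LG. The HFHG libraries were within 4 FPKM of each other and all below LG, and the log2 fold change was -0.45 ± 0.0268 (adjusted p = 1.45e-08, limma). Quantile normalization gave -0.21 for this gene. Because of its high level, Psmd8 lowered the mean of the 11 subunits to 85.2 FPKM in HFHG against 94.3 FPKM in LG; without it the means were 67.5 and 68 FPKM. Psmd3, a scaffold subunit of the lid, had 62.4, 65.9, 62.8 and 62.6 FPKM in HFHG and 51.5, 52.2, 53.3 and 54 FPKM in LG. It was the most increased of the 46 genes, at 0.27 ± 0.0286 (adjusted p = 3.71e-06, limma), without overlap.

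Psmd11, another lid scaffold, rose by 0.16 on the log2 scale (adjusted p = 0.000407, limma). Psmd14, the deubiquitinating enzyme of the lid, was lower (-0.15, adjusted p = 0.000552, limma; -0.087 after rescaling to the same sum), and so was its partner Psmd7 (-0.22, adjusted p = 8.43e-05, limma). Psmd13 was lower (-0.10, adjusted p = 0.0273, limma) with overlapping groups and lost the call in 5 of 18 alternatives. The large base subunits Psmd1 and Psmd2 and the ubiquitin receptor Psmd4 did not pass, with log2 fold changes of 0.03, 0.02 and -0.06.

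Of the 6 activator and inhibitor genes, 2 rose, 2 fell and 2 did not pass (against 34% higher and 30.8% lower over all tested genes); after rescaling to the same sum, 1 was lower. Psme4 encodes PA200, a nuclear activator that works without ATP. It had 11.7, 10.6, 11.2 and 11.5 FPKM in HFHG and 10.1, 9.93, 9.56 and 9.5 FPKM in LG. The HFHG libraries were all higher, by 0.20 ± 0.0444 on the log2 scale (adjusted p = 0.0017, limma). Psmf1, the inhibitor, rose by 0.19 on the log2 scale (adjusted p = 0.00212, limma). Psme1, the alpha subunit of the interferon-inducible PA28 activator, had 47.3, 52.9, 50.1 and 45.3 FPKM in HFHG and 59.6, 53.7, 57.9 and 60.4 FPKM in LG. It was lower in each HFHG library (-0.24 ± 0.0494, adjusted p = 0.000834, limma), HFHG replicate 2 and LG replicate 2 being less than 1 FPKM apart. Its partner Psme2 (-0.06, adjusted p = 0.389, limma) did not pass, nor did Psme2b (0.03, adjusted p = 0.62, limma), but their transcripts are 99.4% identical over 794 bases, so that the division of reads between them is uncertain. Psme3, the nuclear PA28 gamma, was lower (-0.11, adjusted p = 0.00809, limma), which was lost after rescaling to the same sum (adjusted p = 0.213).

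The 2 genes that only share the name did not pass. Psme3ip1 had 14.9, 13.8, 14.9 and 14.3 FPKM in HFHG and 14.6, 15, 14.3 and 15.5 FPKM in LG (-0.04, adjusted p = 0.436, limma). Psmc3ip had 0.486, 0.691, 0.638 and 0.486 FPKM in HFHG and 0.745, 0.51, 0.679 and 0.749 FPKM in LG, from 48 to 72 reads in each library (-0.19 with a 95% interval of -0.54 to 0.15, adjusted p = 0.305, limma). Both pairs of groups overlapped.

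The immunoproteasome subunits left out by the rule replace the catalytic subunits in cells exposed to interferon and in many immune cells. Psmb10 (10.1 against 14.3 FPKM, log2 fold change -0.49, adjusted p = 7.4e-05, limma) and Psmb8 (21.7 against 26.9 FPKM, -0.31, adjusted p = 2.83e-06, limma) were lower in HFHG. Psmb9 (4.27 against 4.86 FPKM, -0.18, adjusted p = 0.123, limma) did not pass, except after quantile normalization, where all 3 were lower. Psmb8 was at 27.2% ± 0.648 of Psmb5, the subunit it replaces, in HFHG and at 26.8% ± 1.38 in LG (exact two-sided permutation test, n = 4 each, p = 0.543). The ratio of Psmb9 to Psmb6 was 4.94% ± 0.492 and 5.78% ± 0.912 (exact permutation test, p = 0.114). Psmb10 was at 9.47%, 9.15%, 8.4% and 8.13% of Psmb7 in HFHG and at 12.8%, 11.5%, 10.9% and 13.1% in LG. These values did not overlap. The exact permutation p of 0.0286, the smallest possible for 4 against 4 libraries, became 0.0857 after adjustment over the 3 pairs. Macrophage markers, which summed to 1724 to 1773 FPKM in HFHG and 1893 to 1977 FPKM in LG, moved the same way, and their part in this was not tested.

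Genes around the proteasome were taken from lists of its partners. Of 18 associated genes, mostly shuttles, deubiquitinases and adaptors, 1 was higher, 10 were lower and 7 did not pass. Over all tested genes, 34% were higher and 30.8% lower. The 18 include Pomp and the regulatory particle subunits Adrm1 and Sem1, which the rule left out by their names. Adrm1 (-0.17, adjusted p = 0.00327, limma) and Sem1 (-0.16, adjusted p = 0.000244, limma) were lower. Zfand2a, a stress-induced proteasome adaptor, had the lowest log2 fold change of the list (29.7 against 37.5 FPKM, -0.33, adjusted p = 2.39e-06, limma). After rescaling to the same sum, 7 rather than 10 of them were lower. Of 14 genes of the NRF1 pathway, 5 were higher and 6 lower, beside the same 34% and 30.8% (5 to 7 lower under the other scalings). Nfe2l1 itself rose (207, 209.7, 204 and 207 FPKM in HFHG and 190.0, 189, 188 and 179.6 FPKM in LG; 0.15, adjusted p = 0.000141, limma), as did Ngly1, which removes its glycans (0.44, adjusted p = 2.88e-05, limma), while Ddi2, the protease that cleaves it, did not pass (0.06, adjusted p = 0.69, limma). Nfe2l2, the gene of NRF2, was lower (-0.32, adjusted p = 6.94e-07, limma). The ends of this list were Fbxw7, a ubiquitin ligase subunit (0.57, adjusted p = 0.000104, limma), and Sel1l, an adaptor of degradation at the endoplasmic reticulum (-0.39, adjusted p = 1.03e-07, limma). Nfe2l1, Ngly1, Ddi2 and Nfe2l2 were singled out after their values were seen.

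Of 6 genes for ubiquitin and its activating enzymes, 1 was higher and 4 were lower (3 after rescaling to the same sum or quantile normalization), from Rps27a, a ubiquitin fused to a ribosomal protein (-0.56, adjusted p = 0.00115, limma), to Uba1, the main activating enzyme (0.11, adjusted p = 0.00303, limma). Of 14 genes of the unfolding ATPase p97 and its cofactors, 4 were higher and 4 lower (2 and 5 with median-ratio scaling, 6 and 4 after rescaling to the same sum), between Ubxn6 (-0.40, adjusted p = 2.26e-05, limma) and Yod1 (0.48, adjusted p = 0.068, limma). The COP9 signalosome, built on the same plan as the proteasome lid, had 2 of 10 genes higher and 2 lower (4 and 1 after rescaling to the same sum, 1 and 1 after quantile normalization), at the ends Cops6 (0.31, adjusted p = 7.97e-08, limma) and Cops7a (-0.38, adjusted p = 1.02e-06, limma). The CCT chaperonin, which folds actin and tubulin, had 8 of 8 genes lower under all 4 scalings, from Cct2 (-0.51, adjusted p = 4.42e-09, limma) to Cct7 (-0.18, adjusted p = 0.000127, limma). Each of these counts stands beside the background of 34% higher and 30.8% lower.

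The 48 genes lie on 16 chromosomes, and chromosome 11, with 10 of them, has the most, so that they form no single cluster (GENCODE M21 on GRCm38). Psmg4 lies on the plus strand at chr13:34162964-34178173, Psmd8 on the minus strand at chr7:29174188-29180701 and Psmb5 on the minus strand at chr14:54614119-54618022. Exons of 14 genes overlap exons of another gene; of the genes described above as changed, this holds for Psmg3 (9.68% of its exonic bases), Psmd3 (0.342%), Psmd13 (10.1%), Psme1 (0.634%) and Psmb5 (12.1%, the small gene Mir686). For 7 genes, at least 50% of a transcript is matched at 95% identity or more by another gene, mostly a processed pseudogene, and Psmb5 was the 1 of them that was called. How reads shared with such copies were assigned is not given in the sources used here. Across the 46 genes, the log2 fold change had a Spearman rho of 0.287 with the recovered gene length and of 0.108 with the mean level. Over all tested genes these were 0.149 and -0.174. The Pearson correlation with log2 length was 0.425 across the 46 genes. Psmg1 to Psmg4 had recovered lengths of 554 to 1090 bases, and Psmb2, which rose, had 862 bases. The part of length in the differences was not tested. The points share the same 8 libraries, and these are descriptions without a test.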

How the data were processed

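Total RNA of primary TSCs was extracted with TRIzol and made into libraries with a stranded mRNA kit, 4 from HFHG medium (25.5 mM glucose, 300 µM palmitic acid) and 4 from LG medium. The authors deposited FPKM for 19301 genes. The submitters' processing notes name HISAT2 2.1.0 and the mouse build mm10, while the counting program and the annotation are not given in the sources used here. Groups and replicate numbers came from the sample labels and doses from the paper's methods.

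Genes with at least 0.5 FPKM in at least 4 of 8 libraries (11710) were tested with limma 3.58.1 in R 4.3.3 on log2(FPKM + 0.1), with an intensity trend and Benjamini-Hochberg adjustment over all of them. Fold changes are therefore on the log2(FPKM + 0.1) scale, which understates those of low genes. Ratios and genes below the filter were compared by exact permutation over 70 arrangements (smallest p 0.0286). The lists of genes and members were chosen with earlier results of these data known. Values in every library are given for the genes with the highest and lowest log2 fold change of each structural group, the 6 largest changes and the genes below the filter; for other lists the highest and lowest gene is named, except 1 that is not reported here.

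Reads were recovered as whole multiples of the value of 1 read for 19300 of 19301 genes (within 0.001 reads), with 99.8% of the totals on listed genes. In simulated data with 50 genes changed at each size among 11710, the fit found 64%, 80%, 96% and 98% at log2 fold changes of 0.25, 0.5, 1 and 2, with 11 false calls. Sequences came from RefSeq (GRCm38.p6), exon overlaps from GENCODE M21, and copies from BLAST 2.17.0. The alternatives were 2 other pseudocounts, 2 other filters, 3 other scalings, robust moderation, voom on recovered reads, the replicate number as a block, and each library left out. Counting limits cover counting error only.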

Additional observations from a re-analysis of the deposited data

Results flagged for a closer look

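In 5 of 96 groups of 4 libraries (48 genes in 2 groups), 1 library lay far from the other 3 by Dixon's criterion at 95%; chance flags about 1 in 20 groups. Psmg4 in LG replicate 1 was at 15.4 FPKM, against 16.9 to 17.1 FPKM in the other LG libraries. Psmd3 in HFHG replicate 2 was at 65.9 FPKM, against 62.4 to 62.8 FPKM. Both genes kept their call when that library was left out. Psmd10 in LG replicate 1 was at 25.4 FPKM (others 27.2 to 27.4 FPKM), and Psmd12 in LG replicate 2 at 43 FPKM (others 44.5 to 44.8 FPKM). Psmb11 was at 0.00654 FPKM in HFHG replicate 3, from 1 read, and at 0 elsewhere.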

How the results depend on the processing

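Of the 22 calls, 7 of 9 higher and 11 of 13 lower genes held in all 18 alternatives; the exceptions were Psma1, Psmb1, Psmd13 and Psme3, which lost 17 calls in all, while genes that did not pass gained 28. The count of higher genes was 20 after rescaling to the same sum and 16 after quantile normalization, against 9. The median log2 fold change of the tested genes, -0.02 as reported, was -0.0611 with median-ratio scaling, 0.0192 with quantile normalization and 0.0351 after rescaling to the same sum. Leaving out each library in turn gave 8 to 12 higher and 12 to 14 lower genes. Same-numbered HFHG and LG libraries did not deviate together (correlations of -0.0736 to -0.00558), and the labels do not say whether the numbers pair them. The replicate block gave 8 higher and 13 lower genes. The direction reversed for genes that did not pass: after rescaling to the same sum for Psmb3 (0.024), Psmb7 (0.023), Psmc2 (0.042), Psmd10 (0.028), Psmd9 (0.027) and Psme3ip1 (0.021); after quantile normalization for Psma4 (0.0025), Psmb3 (0.0016), Psmb7 (0.039) and Psmc2 (0.014); with median-ratio scaling for Psma3 (-0.01), Psmb6 (-0.0024), Psmc1 (-0.0084), Psmd1 (-0.01), Psmd2 (-0.022) and Psme2b (-0.002); for Psme2 without LG replicate 4 (range over left-out libraries -0.099 to 0.0065); and for Psme2b without HFHG replicate 1 (-0.0037) or LG replicate 3 (range -0.0045 to 0.076). The cause was not tested. Psmc3ip was not tested at a minimum of 1 FPKM. A gene that did not pass is not shown to be equal in both media. The simulation, with 64% found at a log2 change of 0.25, cannot give the power for the proteasome genes. It changed a far smaller share of genes than the 64.8% called in the data, and it used the spread of all tested genes.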
